A study of Mus musculus with 6 samples.

Results

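S100 proteins are small calcium-binding proteins with a pair of EF-hand motifs, most of which work as dimers. Inside cells, calcium binding opens a surface that grips partners such as annexins and myosin. Outside cells, several members act as alarm signals on receptors such as TLR4 and RAGE, and the S100A8 and S100A9 chains together form calprotectin, the zinc- and manganese-binding protein that neutrophils store in bulk and that keratinocytes make after wounding. Here 10 S100 genes were followed: S100a1, S100a3, S100a4, S100a6, S100a8, S100a9, S100a10, S100a11, S100a13 and S100a16. They were taken by gene symbol from the 16131 gene lines of the deposited table, in which all 10 were listed and passed the filter on low values.

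The samples were skin from C57BL/6 mice with diabetes induced by streptozotocin, a toxin of the insulin-producing beta cells, taken on day 7 after skin wounding. The treatment was rFGF4, a recombinant form of fibroblast growth factor 4, for 3 samples (10 µl per day of 100 ng/ml), and phosphate-buffered saline (PBS), at 10 µl per day, for 3 others. All 6 samples came from diabetic, wounded mice, so neither healthy skin nor unwounded diabetic skin was part of the comparison. Whether the replicates were separate animals or pools, and how the skin was cut around the wound, is not given in the sources used here, so each p-value refers to the spread among the libraries, part or all of which can be technical.

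Expression is given as FPKM, fragments scaled to transcript length and library size, which allows levels to be set beside each other between genes. The listed values summed to 304717 to 311668 FPKM in the rFGF4 libraries and 310256 to 319807 FPKM in the PBS libraries, and the read depth behind them is unknown. The skin markers Krt5 and Krt14, keratins of the basal epidermis, were high in all 6 libraries, at 832 FPKM or more for Krt5 and 1079 FPKM or more for Krt14. Fold changes are differences of log2(FPKM + 0.1), rFGF4 minus PBS, which understate the change of low genes. A gene was called where limma's adjusted p, over 14676 tested genes, was under 0.05. By that rule 1241 genes were higher and 532 lower with rFGF4, a split that turned to 138 higher and 617 lower when each library was centred on its median and to 235 higher and 514 lower after quantile normalization.

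All 10 genes had a lower mean FPKM with rFGF4 than with PBS and a negative log2 fold change, the latter as did 30.2% of tested genes of any length. Among genes of 400 to 600 and of 600 to 800 bases, where 9 of the 10 lie, even the median log2 fold change was negative (-0.58 and -0.39). S100a13, S100a6, S100a4 and S100a1 fell by the test, at 22.7% to 49.1% of their PBS means, none rose, and 6 did not pass. The background for that count was 3.62% of tested genes called lower. For transcripts under 1000 bases, which 9 of the 10 are, it was 21.9%. The groups did not overlap for 6 of the 10 genes, all lower with rFGF4, against 7.36% of all tested genes and 36.4% of those under 1000 bases. Fold changes of all genes ran with transcript length, and a second fit with that length trend removed is given for each gene further on. An unadjusted p under 0.05 was reached by 5, all lower, against 6.58% of tested genes. Under 1000 bases the share is at least the 21.9% that passed the adjusted threshold. The median log2 fold change of the 10 genes was -1.42, against 0.194 over all tested genes. The 10 genes together summed to 1303, 1737 and 1139 FPKM in the rFGF4 libraries, against 2037, 3476 and 4303 FPKM in the PBS libraries. That was 0.366% to 0.570% of all listed FPKM with rFGF4 and 0.650% to 1.39% with PBS. In bulk skin, fewer cells that express a gene and less RNA of it per cell cannot be told apart.

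**Figure D1:**
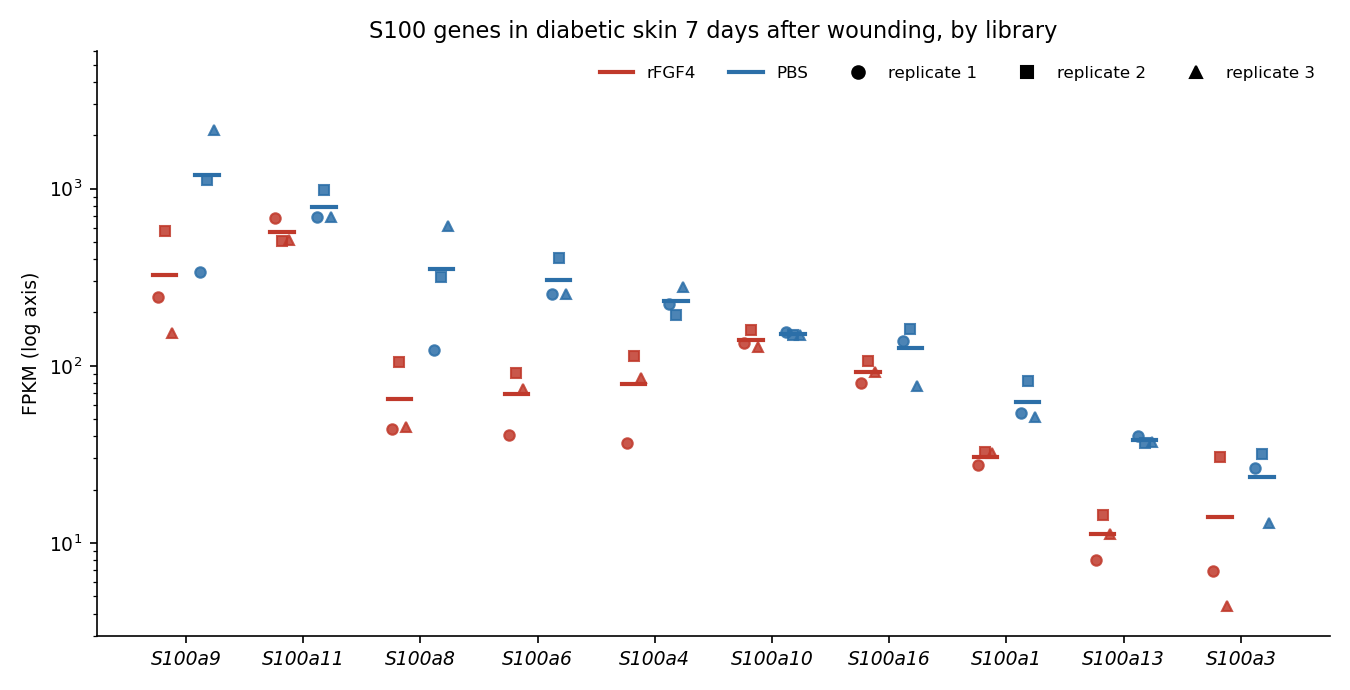
FPKM of the 10 S100 genes on a log axis, for the 3 rFGF4 libraries (red) and the 3 PBS libraries (blue). Each symbol is 1 replicate and each short line the group mean. The rFGF4 and PBS symbols of S100a13, S100a6, S100a4, S100a1, S100a8 and S100a11 do not overlap, whereas those of S100a9, S100a10, S100a16 and S100a3 do.

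All 10 genes lie on mouse chromosome 3, and positions here are those of GENCODE M21 on GRCm38. A run of 8 genes begins with S100a1 (90511034 to 90514392, minus strand) and ends with S100a9 (90692632 to 90695721, minus strand). S100a11 (93520488 to 93526287, plus strand) and S100a10 (93555080 to 93564643, plus strand) lie beyond a gap of 2824766 bases. S100a1 and S100a13 (90514435 to 90524581, plus strand) stand head to head with 42 bases between them, and both were called lower. The called genes are not a single block, because S100a16 (90537254 to 90543151) and S100a3 (90560578 to 90602702) lie between S100a13 and S100a4 (90603771 to 90606045) and did not pass the test. S100a6 (90612882 to 90624181) follows S100a4 on the same strand. S100a4 shares 2115 bases, and S100a3 799 bases, with the same-strand gene Gm42674, and S100a3 shares 1262 bases with S100a2. Gm42674 was not analysed here and S100a2 was not among the listed genes. How reads were divided among these genes is not given in the sources used here.

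The start regions are shown because 1 of them is shared by a called pair, and because the other 3 shown hold TATAAA, the letters of a TATA box. In S100a9 these letters begin at base 1 of the annotated transcript and not before it. RefSeq windows of 300 bases (GRCm38.p6), from 250 bases before to 50 after a gene's start, were found for 9 of the 10 genes, with more than 1 start for S100a3 and S100a16. The first stretch below is the window of S100a13 (chr3:90514185-90514484, plus strand). Its capitals run from the first base of S100a1, which is read in the other direction, to the first base of S100a13, with 104 bases between them. In the other 3 stretches the capitals mark TATAAA, read on the gene's own strand from 100 bases before the start to 50 after it: S100a4 (chr3:90603670-90603819, plus strand), S100a8 (chr3:90668971-90669120, plus strand) and S100a9 (chr3:90695672-90695821, minus strand).
S100a13: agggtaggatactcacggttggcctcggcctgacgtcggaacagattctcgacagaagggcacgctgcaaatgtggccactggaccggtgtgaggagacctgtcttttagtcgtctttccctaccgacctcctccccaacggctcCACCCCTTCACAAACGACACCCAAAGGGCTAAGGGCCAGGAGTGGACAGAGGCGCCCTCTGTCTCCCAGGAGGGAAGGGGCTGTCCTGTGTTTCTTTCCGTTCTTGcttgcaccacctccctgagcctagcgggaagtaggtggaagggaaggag
S100a4: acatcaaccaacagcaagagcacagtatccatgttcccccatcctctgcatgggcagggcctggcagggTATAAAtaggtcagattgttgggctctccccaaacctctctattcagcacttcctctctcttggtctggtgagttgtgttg
S100a8: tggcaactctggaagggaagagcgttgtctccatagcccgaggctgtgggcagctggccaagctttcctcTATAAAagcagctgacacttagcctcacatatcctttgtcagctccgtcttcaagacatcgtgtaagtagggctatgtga
S100a9: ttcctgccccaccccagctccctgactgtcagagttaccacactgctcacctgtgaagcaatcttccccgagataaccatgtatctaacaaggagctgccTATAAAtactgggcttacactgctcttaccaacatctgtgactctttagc

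TATAAA began 31 bases before the S100a4 start and 30 bases before the S100a8 start. In S100a9 it began at base 1 of the annotated transcript. It was also present in 1 of the 4 windows of S100a3, so 4 of the 13 windows of the 9 genes held it, against 13.6% of 32851 mouse windows. Both strands were searched for each of these shares, and every TATAAA match in the S100 windows lay on the gene's own strand. The AP-1 motif TGANTCA, searched on both strands, occurred at 136 and 38 bases before the S100a11 start and in 1 window of S100a16, against 7.81% of all windows. The C/EBP motif TTNNGNAA, on both strands, occurred in S100a8, S100a9 and S100a3 windows, against 40.7% of all windows. The ETS motif CCGGAA was in none of the windows of the 9 genes, against 14.9% of all windows. The windows of S100a1, S100a6 and S100a13, which were called lower, held no match to any of these 4 motifs, while that of S100a4, also called lower, held TATAAA.

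S100a13 binds and helps to export FGF1 and interleukin-1 alpha, proteins that leave the cell without a signal peptide. It had 8.03, 14.3 and 11.2 FPKM in the rFGF4 libraries, against 40.0, 36.7 and 37.4 FPKM in the PBS libraries. The groups stood far apart, and the PBS libraries were close to each other. Its mean was 11.2 ± 3.15 FPKM with rFGF4 and 38.0 ± 1.74 FPKM with PBS (SD, n = 3 each), a log2 fold change of -1.79 ± 0.21 (SE), with adjusted p = 0.0073 (limma). It was called in each of the 6 fits that left out 1 library. Fgf1, the growth factor it carries, lay near the filter at 1.57, 1.30 and 2.23 FPKM with rFGF4 and 1.49, 1.37 and 1.29 FPKM with PBS, and was not called (adjusted p = 0.514, limma).

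S100a6, or calcyclin, is abundant in proliferating cells and fibroblasts and binds the ubiquitin-pathway adaptor CACYBP. Its level was 40.8, 91.7 and 74.5 FPKM in the rFGF4 libraries, against 253, 407 and 253 FPKM in the PBS libraries. Each PBS library was above the highest rFGF4 library by more than the whole spread among the rFGF4 libraries. The log2 fold change was -2.18 ± 0.34 (SE), with adjusted p = 0.0186 (limma). That call was kept without rFGF4 replicate 1 or 2 and lost on leaving out any of the 4 other libraries (adjusted p 0.021 to 0.0713 over the 6 fits, limma). Cacybp was higher, at 31.7, 30.6 and 29.1 FPKM with rFGF4 and 23.9, 22.6 and 21.4 FPKM with PBS (log2 fold change 0.43, adjusted p = 0.0465, limma), a call lost in each fit with a library left out, after median centring and with the length trend removed (adjusted p = 0.298, limma).

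S100a4, which binds non-muscle myosin and is made by fibroblasts, macrophages and other motile cells, had 36.9, 114 and 85.6 FPKM with rFGF4, against 223, 192 and 278 FPKM with PBS. The groups did not overlap, and rFGF4 replicate 1 was the lowest. The log2 fold change was -1.68 ± 0.41 (SE), with adjusted p = 0.0453 (limma), and the call held in 1 of the 6 fits with a library left out, that without rFGF4 replicate 2 (adjusted p 0.042 to 0.117, limma). Of 8 fibroblast markers, which include collagens, 7 were called higher with rFGF4 and none lower, where 8.46% of all tested genes were called higher. None of the markers was called with the length trend removed. Their transcripts had 1758 to 6834 bases. The share called higher was 4.98% of genes of 1500 to 3000 bases, 12.6% of those of 3000 to 6000 bases and 23.4% of longer ones. The fibroblast markers summed to 5512 to 6014 FPKM in the rFGF4 libraries and 2903 to 3683 FPKM in the PBS libraries, so S100a4 and S100a6 moved opposite to that list. Of 12 macrophage and monocyte markers only Mrc1 was called, higher, and their sum overlapped between groups at 1129 to 2240 FPKM with rFGF4 and 879 to 1929 FPKM with PBS. The macrophage markers of highest level, Lyz2, Cd14 and C1qb, were not called (adjusted p = 0.597, 0.814 and 0.160, limma). The part of fibroblast or macrophage content in the S100a4 and S100a6 values was not tested.

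S100a1, best known for binding the calcium release channel of heart and skeletal muscle, had 27.5, 32.5 and 32.2 FPKM with rFGF4, against 54.1, 81.9 and 51.7 FPKM with PBS. Every rFGF4 library was below every PBS library. The log2 fold change was -0.99 ± 0.20 (SE), with adjusted p = 0.0299 (limma). It missed the threshold in all 6 fits with a library left out (adjusted p 0.059 to 0.0854, limma). Skeletal muscle markers, 12 in all, gave sums of 2990, 1768 and 3629 FPKM with rFGF4 and 5870, 2777 and 3584 FPKM with PBS. None of the 12 was called by limma. An unadjusted p under 0.05 was reached by 2, both lower, against 6.58% of tested genes. These 2 have transcripts of 700 and 768 bases, a class in which 21.4% of genes were called lower. With the length trend removed their adjusted p was 0.375 and 0.538 (limma). A negative log2 fold change was found for 11 of the 12, against 30.2% of tested genes. The part of muscle content in the S100a1 difference was not tested.

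The calprotectin genes were the most variable of the highly expressed members. S100a8 had 43.9, 105 and 45.0 FPKM with rFGF4, against 123, 316 and 612 FPKM with PBS. S100a9 had 243, 575 and 154 FPKM with rFGF4, against 337, 1116 and 2139 FPKM with PBS. The S100a8 values did not overlap between groups, but PBS replicate 1 came close to rFGF4 replicate 2, and for S100a9 rFGF4 replicate 2 was above PBS replicate 1.

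Neither gene passed the test. The log2 fold change of S100a8 was -2.28 ± 0.62 (SE), the largest of the 10 in size, with adjusted p = 0.0567 (limma), and the gene was called when only genes with at least 5 FPKM were tested (adjusted p = 0.048, limma). That of S100a9 was -1.74 ± 0.75 (SE), with adjusted p = 0.163 (limma). Both were highest in replicate 2 of the rFGF4 group and in replicate 3 of the PBS group. Their ratio, S100a9 to S100a8, was 5.55, 5.48 and 3.42 with rFGF4 and 2.75, 3.54 and 3.50 with PBS, and the groups overlapped (exact two-sided permutation test, p = 0.3, the smallest possible being 0.1). Their summed FPKM was 287, 680 and 199 with rFGF4, against 460, 1432 and 2751 with PBS. The other 8 genes summed to 1016, 1057 and 940 FPKM with rFGF4, against 1578, 2044 and 1552 FPKM with PBS, values that were much closer within each group.

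Of 19 neutrophil markers, 15 were listed, 13 were tested and 2 were called, both lower, where 3.62% of all tested genes and 21.9% of those under 1000 bases were. These were Stfa1 and Stfa3, short stefin genes with near-identical copies, so their values are uncertain, and with the length trend removed Stfa1 stayed called and Stfa3 did not (adjusted p = 0.0418 and 0.0799, limma). The 15 listed markers summed to 358, 426 and 292 FPKM with rFGF4 and 565, 688 and 806 FPKM with PBS, and Stfa3, the highest of them, supplied 106, 81.1 and 79.5 FPKM with rFGF4 and 320, 271 and 246 FPKM with PBS. Csf3r, the receptor for granulocyte colony-stimulating factor and a defining neutrophil gene, had 19.6, 17.3 and 19.9 FPKM with rFGF4 and 9.67, 22.0 and 40.4 FPKM with PBS. It ran in the same order as S100a8 and S100a9 among the PBS libraries and was flat among the rFGF4 libraries, with a log2 fold change of -0.12 (adjusted p = 0.889, limma). Other markers differed from it: Clec4d had 41.2, 119 and 52.8 FPKM with rFGF4 and 41.3, 120 and 116 FPKM with PBS. Within the rFGF4 group Clec4d, Stfa2l1, Il1r2, Retnlg, Fpr1, Fpr2 and Mmp8 were highest in replicate 2, as S100a8 and S100a9 were. The remaining tested markers, Csf3r, Cxcr2, Mmp9, Stfa1, Stfa2 and Stfa3, were not. Of the 13 tested markers 12 had a negative log2 fold change, with a median of -0.31 over the 13, where 30.2% of all tested genes had one. Camp, Ly6g, Elane and Mpo, further genes that define neutrophils, were not among the listed genes, and Ngp and Ltf were below the filter. Wound-edge keratinocytes, the other main source of calprotectin, were followed by Krt6a, Krt6b, Krt16 and Krt17. None of these 4 was called by limma or had an unadjusted p under 0.05, and their sum overlapped between groups at 948 to 1824 FPKM with rFGF4 and 739 to 2920 FPKM with PBS. The part of either cell type in the S100a8 and S100a9 values was not tested.

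**Figure D2:**
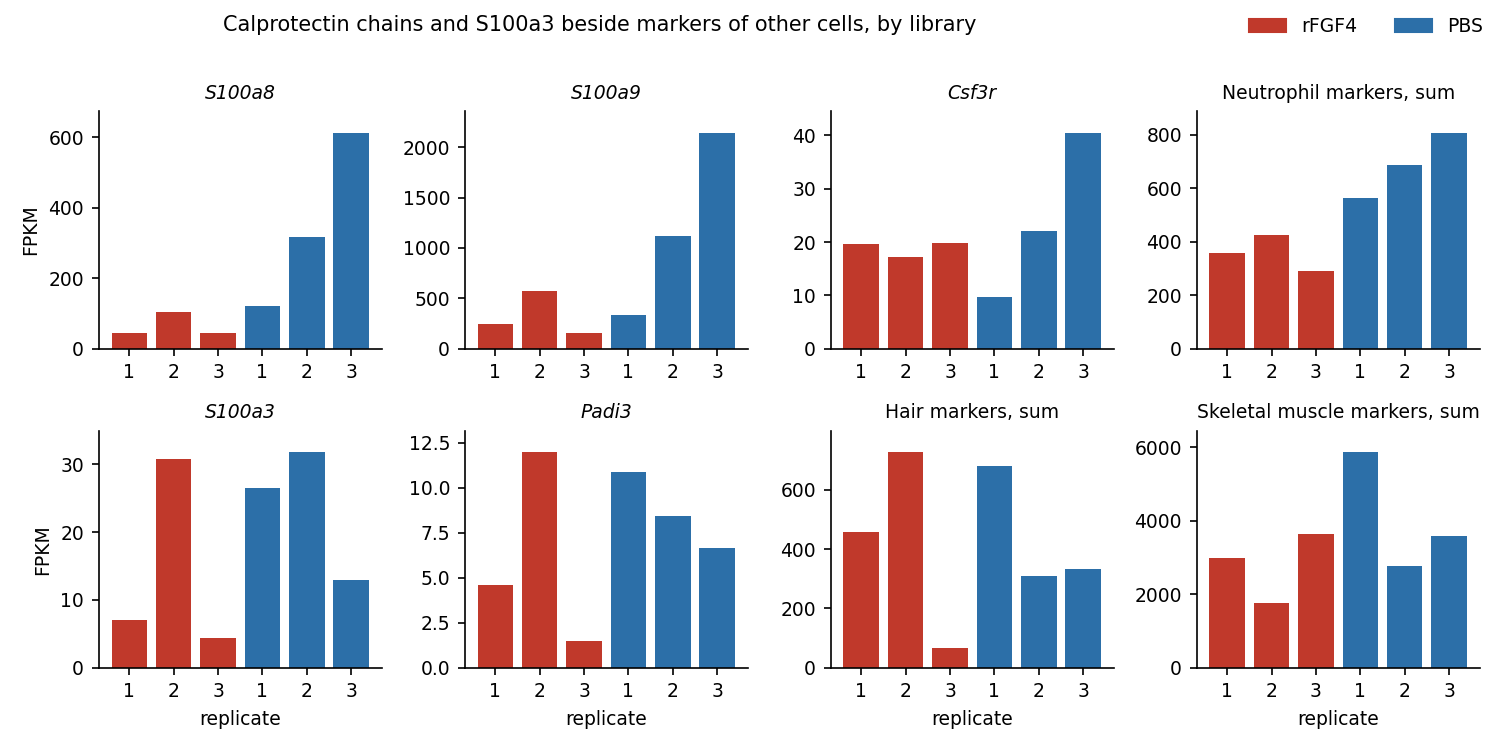
FPKM by library of S100a8, S100a9, the neutrophil receptor Csf3r and the sum of the listed neutrophil markers (upper row), and of S100a3, the hair enzyme Padi3, the summed hair markers and the summed skeletal muscle markers (lower row), with rFGF4 in red left of PBS in blue and bars starting at 0. S100a8, S100a9 and Csf3r are highest in PBS replicate 3 and, within the PBS group, lowest in replicate 1, and within the rFGF4 group S100a3 and Padi3 are both highest in replicate 2 and lowest in replicate 3.

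None of the genes known to induce calprotectin or to follow its receptor signal passed the test. Of 20 such genes, 18 were listed, 17 were tested and none was called, while 3 had an unadjusted p under 0.05, all higher. By the stricter adjusted p 8.46% of all tested genes were called higher, so at least that share was higher at the unadjusted threshold. Il6 had 2.94, 2.04 and 6.62 FPKM with rFGF4 and 1.39, 0.265 and 0.995 FPKM with PBS (log2 fold change 2.07, adjusted p = 0.0730, limma). The neutrophil chemokine Cxcl1 had 6.04, 17.9 and 11.5 FPKM with rFGF4 and 4.61, 4.97 and 5.54 FPKM with PBS (log2 fold change 1.08, adjusted p = 0.0948, limma), and was called without rFGF4 replicate 1. Values did not overlap between groups for either gene, with rFGF4 higher, as was so for 30.9% of all tested genes. Myd88, the adaptor of TLR4, had a log2 fold change of 0.38 (adjusted p = 0.121, limma), the chemokine Cxcl5 1.31 (adjusted p = 0.199, limma) and Ccl2 0.56 (adjusted p = 0.336, limma). Il1b, at 91.9, 191 and 106 FPKM with rFGF4 and 54.7, 303 and 340 FPKM with PBS, and Cxcl2, at 170, 353 and 71.8 FPKM with rFGF4 and 98.5, 344 and 680 FPKM with PBS, were lowest among the PBS libraries in replicate 1, as were S100a8 and S100a9. Il1b and Cxcl2 were picked after their values were seen. The trait is not particular to them, because all listed genes of the 20 had it except Il6, Cxcl5 and Ccl2, which were lowest in PBS replicate 2. Of the receptors, Tlr4 had 3.82, 5.39 and 4.68 FPKM with rFGF4 and 2.20, 2.80 and 3.54 FPKM with PBS (log2 fold change 0.69, adjusted p = 0.0779, limma). Ager, which encodes RAGE, had 3.40, 3.57 and 3.28 FPKM with rFGF4 and 3.45, 3.29 and 4.37 FPKM with PBS (adjusted p = 0.688, limma).

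S100a10, the member with the smallest difference in the deposited values, sits with annexin A2 in a complex at the cell surface that binds plasminogen and its activator. It had 135, 159 and 127 FPKM with rFGF4, against 154, 148 and 149 FPKM with PBS, with a log2 fold change of -0.11 ± 0.14 (SE; adjusted p = 0.644, limma). The sign of that difference turned when the length trend was removed (0.31) and after quantile normalization (0.13). Its partner Anxa2 had 178, 221 and 201 FPKM with rFGF4 and 201, 226 and 169 FPKM with PBS. The ratio of S100a10 to Anxa2 was 0.758, 0.719 and 0.633 with rFGF4 and 0.767, 0.658 and 0.882 with PBS, with overlapping groups (exact two-sided permutation test, p = 0.4, the smallest possible being 0.1). Plat, the tissue-type plasminogen activator, was higher with rFGF4 (17.8, 21.7 and 19.7 FPKM, against 12.2, 14.1 and 14.4 FPKM with PBS; adjusted p = 0.0430, limma). That call was lost in each fit with a library left out, after median centring and with the length trend removed (adjusted p = 0.296, limma).

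S100a11 binds annexin A1 and is abundant in epidermal cells. It had 681, 508 and 513 FPKM with rFGF4, against 688, 983 and 693 FPKM with PBS. The groups did not overlap, but rFGF4 replicate 1 was only just below PBS replicate 1. The log2 fold change was -0.47 ± 0.22 (SE; adjusted p = 0.188, limma), and its sign turned when the length trend was removed (0.11, adjusted p = 0.875, limma). Anxa1 had 121, 144 and 142 FPKM with rFGF4 and 129, 129 and 94.5 FPKM with PBS (adjusted p = 0.422, limma).

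S100a16, a widely expressed member, had 79.8, 107 and 91.8 FPKM with rFGF4, against 139, 162 and 77.1 FPKM with PBS. The groups overlapped because PBS replicate 3 was the lowest of all 6 libraries, and the log2 fold change was -0.38 ± 0.29 (SE; adjusted p = 0.413, limma).

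S100a3 belongs to the cuticle of the hair shaft, where the enzyme PADI3 converts its arginines to citrulline. It had 6.98, 30.7 and 4.41 FPKM with rFGF4, against 26.4, 31.8 and 13 FPKM with PBS. rFGF4 replicate 2 was as high as the PBS libraries, and the log2 fold change of -1.16 ± 0.72 (SE) had adjusted p = 0.312 (limma). Padi3 had 4.62, 12.0 and 1.50 FPKM with rFGF4 and 10.9, 8.46 and 6.67 FPKM with PBS (adjusted p = 0.389, limma). The sum of 14 listed keratins of the hair shaft and sheath, called hair keratins below, was 458, 726 and 67.4 FPKM with rFGF4 and 680, 310 and 333 FPKM with PBS. The sum does not separate shaft from sheath, whereas S100a3 belongs to the shaft. None of the 13 tested was called by limma or had an unadjusted p under 0.05. Within the rFGF4 group S100a3, Padi3 and the summed hair keratins were highest in replicate 2 and lowest in replicate 3, although 9 of the 14 hair keratins were lowest in replicate 1. Within the PBS group S100a3 was highest in replicate 2, where the hair keratin sum was lowest. Taken singly, Krt31, Krt32, Krt33a, Krt33b, Krt34, Krt72, Krt81, Krt83 and Krt86 were highest in that PBS library, as S100a3 was. Krt25, Krt27, Krt35, Krt71 and Krt73, which had higher levels and so weigh most in the sum, were lowest in it. The part of hair follicle content in the S100a3 values was not tested.

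The order of the levels differed between groups. With rFGF4 it ran S100a11, S100a9, S100a10, S100a16, S100a4, S100a6, S100a8, S100a1, S100a3 and S100a13, and among neighbours in that order only S100a10 and S100a16, and S100a8 and S100a1, had ranges that did not overlap. With PBS it ran S100a9, S100a11, S100a8, S100a6, S100a4, S100a10, S100a16, S100a1, S100a13 and S100a3, and the ranges were separate between S100a11 and S100a8, between S100a4 and S100a10, between S100a1 and S100a13 and between S100a13 and S100a3. S100a8 thus ranked 7 with rFGF4 and 3 with PBS. Over the 6 libraries the pair with the closest profile was S100a4 and S100a13, with a root mean square difference of 0.305 on the log2 scale after each gene was centred on its mean. Next were S100a10 with S100a11 (0.319), S100a6 with S100a13 (0.342), S100a1 with S100a11 (0.344) and S100a16 with S100a11 and with S100a10 (0.359 each). S100a8 with S100a9 followed (0.372), and S100a8 with S100a16 was the farthest (1.36).

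Transcript length moved with the fold changes of all genes, and the S100 transcripts are short, at 486 bases for S100a8 up to 1127 bases for S100a16. Over 14191 tested genes with a known length, Spearman's rho between the log2 fold change and length was 0.502, a description across genes, which are not independent. Genes of 400 to 600 bases, the class of S100a4, S100a8, S100a9 and S100a11, had a median log2 fold change of -0.58, and 31.1% of them were called lower. For 600 to 800 bases, the class of S100a1, S100a3, S100a6, S100a10 and S100a13, the median was -0.39 and 21.4% were called lower. For 1000 to 1500 bases, the class of S100a16, the median was -0.07 and 3.35% were called lower. Of the 10 genes, 8 lay below the median of their class. S100a6 was lower than all but 1.24% of its class, S100a13 than all but 3.11% and S100a8 than all but 4.28%, whereas S100a1 and S100a4 were lower than all but 17.2% and 14.9%, and S100a10 and S100a11 lay above their class median.

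**Figure D3:**
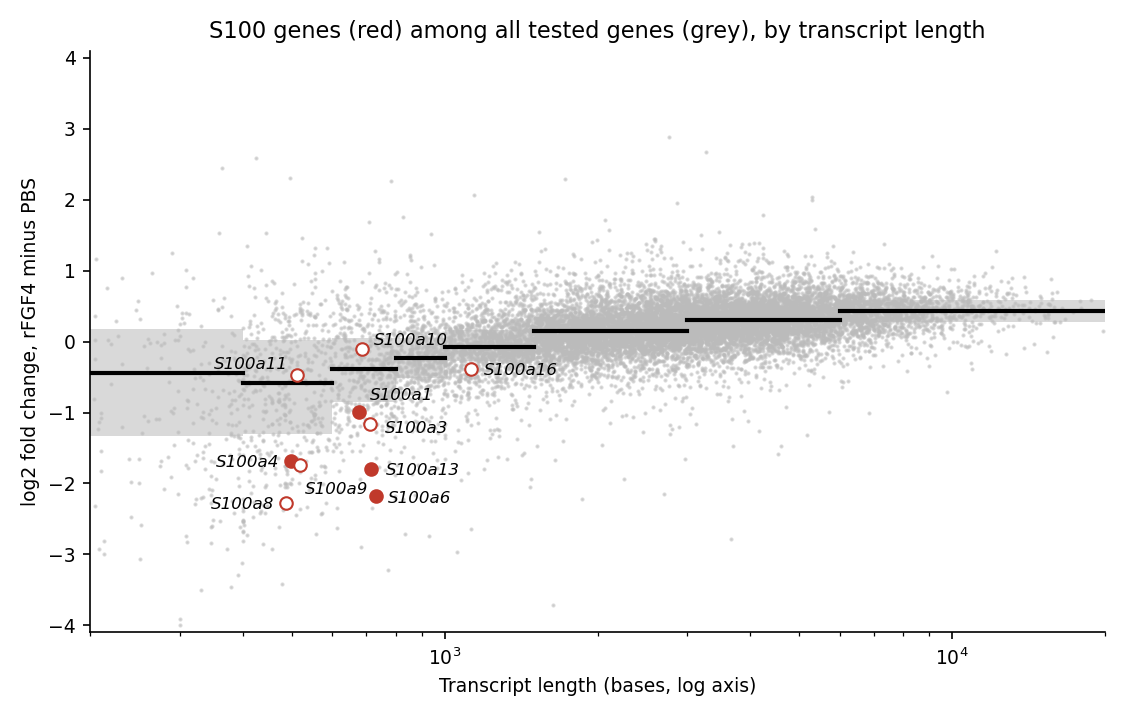
Log2 fold change, rFGF4 minus PBS, against transcript length on a log axis. Grey points are tested genes (values beyond 4 in size are drawn at the edge, and genes beyond the length axis are not drawn), black bars the median of each length class, grey bands its interquartile range, and red circles the 10 S100 genes, filled where called. From the class of 400 to 600 bases on, the medians climb with length, and S100a6, S100a13 and S100a8 lie farthest below theirs.

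Removing that trend within each library left 2 of the 10 genes called, where the background was 1.61% of genes called lower. S100a13 had a log2 fold change of -1.40 ± 0.14 (SE; adjusted p = 0.00715, limma) and S100a6 of -1.80 ± 0.31 (SE; adjusted p = 0.0423, limma). With the trend removed and 1 library left out, S100a13 was called in 5 of 6 fits, missing it without PBS replicate 1 (adjusted p = 0.0503, limma). S100a6 was called in none of those 6 fits (adjusted p 0.0734 to 0.11, limma). S100a4 had -1.10 ± 0.35 (SE; adjusted p = 0.208, limma) and S100a1 -0.57 ± 0.21 (SE; adjusted p = 0.268, limma), and neither was called. S100a8 had -1.68 ± 0.61 (SE; adjusted p = 0.253, limma) and S100a9 -1.17 ± 0.74 (SE; adjusted p = 0.480, limma). The median of the 10 genes was then -0.93, against -0.02 over all genes with a length. Since transcript length moves with the groups, a loss of short transcripts in library making and a change in the tissue shared by short genes cannot be told apart.

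**Figure D4:**
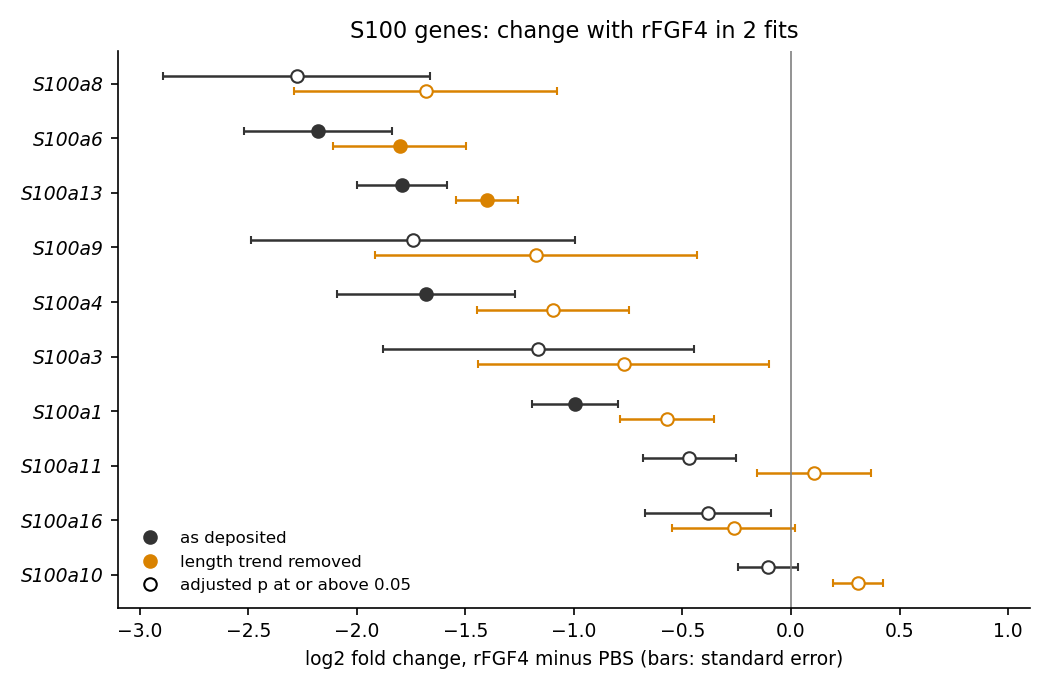
Log2 fold change, rFGF4 minus PBS, of the 10 S100 genes in the fit to the deposited values (dark, upper) and in the fit with the length trend removed (orange, lower); bars are standard errors and open circles have an adjusted p at or above 0.05. S100a13 and S100a6 are filled in both fits, S100a4 and S100a1 in the fit to the deposited values alone, and S100a10 and S100a11 change sign.

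Other genes of the family gave no call. The family also holds fused genes, such as filaggrin (Flg), which join an S100 domain to a long repeat region and act in the cornified layer. Of 16 further S100 and fused S100-type genes, 10 were listed and 9 tested, and none was called by limma. An unadjusted p under 0.05 was reached by 1, lower, against 6.58% of tested genes in that direction. That gene was S100a14, an epithelial member with a transcript of 1059 bases. It had 45.6, 83.9 and 57.4 FPKM with rFGF4, against 163, 199 and 89.7 FPKM with PBS, groups that did not overlap (log2 fold change -1.24, adjusted p = 0.0615, limma). The fused genes Flg2, Flg and Hrnr had positive log2 fold changes of 0.72, 0.79 and 0.70 (adjusted p = 0.164, 0.244 and 0.418, limma), and S100a7a one of -0.33 (adjusted p = 0.490, limma). Among 21 binding partners and receptors of the S100 proteins 3 were called, all higher, where 8.46% of tested genes were. They were Plat and Cacybp, given above, and Cd36, a scavenger receptor that takes up fatty acids, with 36.3, 39.6 and 38.8 FPKM with rFGF4 and 23.2, 28.1 and 24.4 FPKM with PBS (log2 fold change 0.60, adjusted p = 0.0295, limma). None of these 3 was called in any of the 6 fits with a library left out, nor after median centring.

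In the authors' deposited table, 6 of the 10 genes are marked significant, all lower with rFGF4: S100a1, S100a4, S100a6, S100a8, S100a9 and S100a13. The same mark is on 6.01% of listed genes in that direction, a share over all transcript lengths, and that among short transcripts was not computed. In the authors' deposited table the mark coincides in all 16131 lines with an unadjusted p under 0.05 and a fold of at least 1.5, so it is not a call on the q-value. S100a9, which carries the mark, has a deposited q of 0.0753 there, and S100a11, which does not, one of 0.0364 in the authors' deposited table.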

How the data were processed

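Strand-marked (dUTP) paired-end libraries were built from fragmented poly(A) RNA, per the labels' protocols. Tools named without version in the submitters' processing notes are StringTie, HISAT2, edgeR and fastp, and the build named is GRCh38, which is human, although the samples are from mouse. The 6 deposited value columns name no unit; from StringTie and their sums they were taken to be the authors' FPKM. Whole reads could not be recovered (12.9% to 14.3% of values within 0.05 of a multiple, where chance gives 10%). The deposited table also holds p-values and q-values, a fold (ratio of means) and its log2. Whether counting used the strand is not stated.

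The 14676 genes that reached 1 FPKM in 3 or more libraries were fitted by limma-trend (limma 3.58.1, statmod 1.5.0, R 4.3.3; robust, two-sided, group only) on log2(FPKM + 0.1), with Benjamini-Hochberg adjustment over all of them. Transcript lengths (longest APPRIS-principal transcript) came from GENCODE M21, matched for 15482 of 16131 lines. The length trend was removed per library by loess (span 0.3, degree 1). Promoter windows came from RefSeq, GRCm38.p6. Python 3.11.15 was used for the rest. Alternatives were pseudocounts of 1 and 0.01, no filter, at least 5 FPKM, median centring, quantile normalization, length removal, the replicate block and each library left out. Length removal together with each library left out was chosen after seeing the data. Scripts were tested on simulated data. The 10 genes, the gene lists and the tests were chosen with earlier results of these data known. Genes named are the 10 members, those called or up to 5 of smallest p in the related lists, Anxa2, Anxa1, Padi3, Fgf1, Ager and Tlr4, and markers of highest level. Csf3r, Mrc1, Stfa1, Il1b, Cxcl2 and Ahnak were added after their values were seen. So were the neutrophil markers compared by replicate within the rFGF4 group. The genes most like the mean of the 10 are not reported here. No batch is given in the labels.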

Additional observations from a re-analysis of the deposited data

How the results depend on the processing

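S100a13 was called under all 14 alternatives, with adjusted p of 0.00275 to 0.0483 (limma); S100a6 under 10 and S100a4 and S100a1 under 6 each. S100a3, S100a9, S100a10, S100a11 and S100a16 were called under none, and S100a8 only with at least 5 FPKM. The log2 fold change of S100a10 turned positive with the length trend removed (0.309) and with quantile normalization (0.128), and that of S100a11 with the length trend removed (0.105). S100 genes called numbered 4, against 2 with the length trend removed and 1 to 3 with a library left out. All genes called numbered 1773, against 306 with the length trend removed, 755 with median centring and 749 with quantile normalization, and 156 (without PBS replicate 1) to 890 (without rFGF4 replicate 2) with a library left out. Partners and receptors called numbered 3, against 1 with the length trend removed (Ahnak, whose transcript used here has 830 bases), 0 with median centring and 0 in each fit with a library left out. Calprotectin inducers and outputs numbered 0, against 0 to 1 with a library left out. With the replicate number as a block, 233 genes, 2 S100 genes (S100a6 and S100a13) and 0 partners were called. The deviations of same-numbered libraries were weakly correlated (Pearson's r 0.183, -0.067 and -0.125 across genes), which cannot show whether the numbers pair them. The cause of these shifts was not tested; leave-out fits also have fewer libraries. Both ratios kept their sign throughout. Depth is unknown, and 3 libraries a group limit what can be called.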

Other observations

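By likeness of profile over the 6 libraries (root mean square difference of centred log2 values), the 5 tested genes nearest to S100a8 were Gm12411, Csta2, Gm15516, Rpl30-ps8 and Rps12-ps9 (0.389 to 0.509), all farther from it than S100a9 (0.372). Nearest to S100a4 were Gm10157, Rplp1, Rps19-ps3, Crip1 and Gm9442 (0.222 to 0.246), where S100a13 stood at 0.305. Rplp1, a ribosomal stalk protein gene, had 222, 555 and 472 FPKM with rFGF4, against 1169, 1166 and 1044 FPKM with PBS, and Crip1, a small LIM-domain protein gene, 7.59, 15.9 and 10.1 FPKM with rFGF4, against 32.2, 30.9 and 42.0 FPKM with PBS. Of these 10 genes 9 have an annotated length, of 193 to 516 bases, and those named as pseudogenes are near-copies of their parent genes, so their values are uncertain.

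Among lists of other cells, none of the basal and suprabasal keratinocyte, adipocyte, endothelial and Schwann cell markers was called by limma. An unadjusted p under 0.05 was reached by 1 adipocyte and 1 endothelial marker, both higher with rFGF4, where 8.46% of all tested genes were called higher by the adjusted p. Their summed FPKM overlapped between groups for basal and suprabasal keratinocytes (2890 to 4253 with rFGF4, 2335 to 7585 with PBS), adipocytes (208 to 245 with rFGF4, 237 to 292 with PBS) and endothelium (73.2 to 148 with rFGF4, 68.6 to 95.3 with PBS). For Schwann cells the sums were 11.8 to 13.1 with rFGF4 and 13.2 to 14.5 with PBS.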
